A study of Mus musculus with 6 samples.

Results

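The 10 genes described here are the Notch receptors Notch1 and Notch3, the ligands Dll1, Dll4, Jag1 and Jag2, and the target genes Hey1, Hey2, Heyl and Hes1. They were chosen by symbol, and each was represented by 1 probe set annotated to that gene alone, so 10 of the 14860 genes measured were members and none was lost to a filter. Expression was measured on Affymetrix arrays in hearts dissected from mouse embryos at E13.5, and the design addresses removal of Hic2, a zinc finger transcription factor, from the developing heart. Control embryos were Hic2 FL/FL, with both copies of Hic2 floxed and no Cre. Conditional knockout embryos were Mesp1 Cre/+; Hic2 FL/FL, the same floxed alleles with 1 copy of a Cre recombinase that is active in the early mesoderm, from which most heart muscle, endocardium and vessels derive. Each genotype had 3 arrays, and each array held RNA from a pool of 4 to 6 hearts. No group carried Cre without the floxed alleles, so Hic2 removal and the Cre allele cannot be told apart, and cells that do not descend from Mesp1-expressing mesoderm keep Hic2.

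In Notch signalling a ligand on one cell binds a receptor on its neighbour, the receptor is cut, and its released intracellular part joins the DNA-binding protein RBPJ to switch on target genes. The classic targets of the Hes and Hey families are themselves transcriptional repressors. In the embryonic heart Notch1 and Dll4 act in the endocardium and endothelium, where they take part in trabeculation and in the formation of valve cushions. Notch3 acts in smooth muscle and pericytes, Jag1 in the endocardium, vessel wall and outflow tract, and Hey2 in the compact ventricular muscle.

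The values are log2 expression values made by the authors with RMA, which brings all arrays to a shared distribution of signal. Medians per array lay between 7.41 and 7.48, and levels of different probe sets are not compared. The Hic2 probe set stood at 8.10, 8.26 and 8.14 in the controls and at 8.07, 7.96 and 8.04 in the knockouts. Its groups did not overlap, and its difference of -0.14 ± 0.07 (SE) had an adjusted p of 0.314 in limma, short of the 0.05 threshold. The files used here do not place that probe set relative to the floxed part, so it does not check the genotype labels. Of the heart muscle markers 9 of 16 were measured, and their mean log2 value lay between 12.8 and 12.9 on every array. The Y-linked gene Eif2s3y stood at 4.36 in control replicate 3 and between 8.51 and 9.64 on the other arrays. Kdm5d, also Y-linked, stood at 5.33 in that pool and between 7.15 and 8.23 elsewhere. By these genes the pools were not matched in sex, and control replicate 3 held the least male signal. Without that pool the log2 changes described below were 0.19 in Dll4, -0.34 in Jag1, -0.25 in Dll1 and 0.07 in Hey2, none past the threshold.

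Promoter sequences from RefSeq (build GRCm38.p6) were matched by symbol for 7 of the 10 members, in 8 windows of 300 bases that run from 250 bases before the gene's start to 50 bases from it. Hey1, Heyl and Hes1 were not matched. Hey2 is shown because it was the only matched target gene, and its promoter held the core of the RBPJ motif, TGGGAA or TTCCCA on the other strand, at 2 places. Dll4 and Jag1 are shown because they were the ligands with the largest differences between genotypes, in opposite directions.
Hey2, chr10:30842781-30843033, minus strand, RBPJ cores in capitals: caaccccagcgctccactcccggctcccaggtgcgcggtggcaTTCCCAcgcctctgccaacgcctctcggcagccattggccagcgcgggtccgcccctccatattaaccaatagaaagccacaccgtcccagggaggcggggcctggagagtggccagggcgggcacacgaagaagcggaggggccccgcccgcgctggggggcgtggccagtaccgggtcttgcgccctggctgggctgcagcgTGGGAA
Dll4, chr2:119325534-119325783, plus strand, HIC core in capitals: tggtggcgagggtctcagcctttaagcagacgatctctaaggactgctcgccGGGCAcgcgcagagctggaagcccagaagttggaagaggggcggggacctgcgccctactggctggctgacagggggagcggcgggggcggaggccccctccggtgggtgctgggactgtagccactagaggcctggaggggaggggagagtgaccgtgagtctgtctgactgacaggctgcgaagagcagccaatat
Jag1, chr2:137116521-137116770, minus strand, HIC core in capitals: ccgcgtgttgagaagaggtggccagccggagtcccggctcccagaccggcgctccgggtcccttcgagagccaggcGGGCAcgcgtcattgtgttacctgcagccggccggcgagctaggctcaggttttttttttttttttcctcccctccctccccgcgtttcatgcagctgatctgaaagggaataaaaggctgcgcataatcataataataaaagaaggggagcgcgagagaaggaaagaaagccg

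The 2 RBPJ cores of Hey2 began 207 bases and 3 bases before its start, the latter spanning the start itself. Among all 32851 promoter windows 25.6% held at least 1 such core and 3.79% held 2 or more, and of the 8 member windows only that of Hey2 held any. The core bound by HIC proteins, GGGCA or TGCCC on the other strand, was found in 7 of the 8 member windows and in 53.5% of all windows. It began 198 bases before the start of Dll4 and 174 bases before that of Jag1. The E-box CACGTG, a sequence bound by many basic helix-loop-helix factors, was in 0 of the 8 windows and in 7.15% of all windows. No match of one of these motifs overlapped another in the member windows. A match is a description of letters, and binding was not measured.

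None of the 10 Notch genes passed the test between genotypes. At a limma adjusted p under 0.05 the count was 0 of 10, where 0.559% of all genes passed, 0.336% as higher and 0.222% as lower in the knockout. At an unadjusted p under 0.05 it was 3 of 10, Dll4, Jag1 and Dll1, beside 17.5% of all genes. In 4 of the 10 the knockout and control values did not overlap, beside 24.6% of all genes. Dll4 and Hey2 lay higher (2 of 10, beside 14.2%), and Jag1 and Dll1 lay lower (2 of 10, beside 10.4%). The median log2 change of the 10 was 0.009 and that of all genes was 0.005, with 6 members above 0 and 4 below. In the main fit the unadjusted 95% confidence intervals of the 10 changes spanned 0.682-fold to 1.26-fold. A change of 1.5-fold or more in either direction lay outside every one of them. Jag1 set the lower limit, and without knockout replicate 1 its log2 change was -0.41 ± 0.08 (SE), a larger fall than in the main fit. These are intervals for whole hearts and do not bound a change within a cell type. For each of Dll4, Jag1, Dll1 and Hey2 the exact permutation p (two-sided) was 0.1, the lowest that 3 arrays against 3 can reach. Groups that do not overlap always give that value, so it is no further result.

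**Figure D1:**
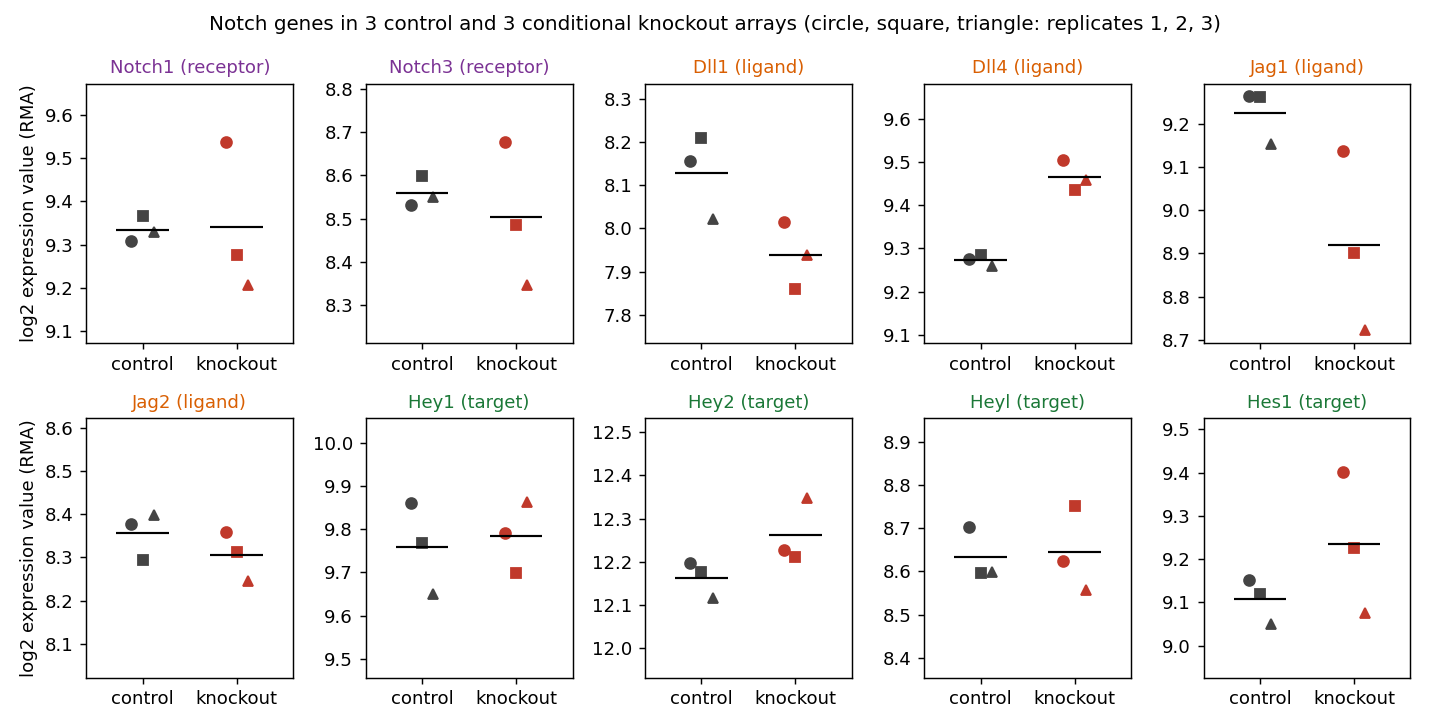
Log2 expression value of each Notch gene on each array, with control in grey and conditional knockout in red, symbols for the replicates and a line at each group mean; every panel spans the same height of 0.6 log2 units. Dll4 and Hey2 lie above the controls in all 3 knockout arrays, Jag1 and Dll1 lie below them, and the other 6 genes overlap.

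The ligands held the largest differences, and these ran in both directions. Dll4, the ligand of arterial and endocardial cells, stood at 9.27, 9.28 and 9.26 in the controls and at 9.50, 9.44 and 9.46 in the knockouts. Every knockout array lay at least 0.15 above every control, the widest gap among the 10 genes. The change was 0.19 ± 0.05 (SE), or 1.14-fold with a 95% interval of 1.05 to 1.25, with a limma adjusted p of 0.153. Without single arrays it stayed between 0.17 and 0.21.

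Jag1, whose human counterpart is mutated in Alagille syndrome with defects of the outflow tract, stood at 9.26, 9.26 and 9.15 in the controls and at 9.14, 8.90 and 8.72 in the knockouts. The groups were only just apart, by 0.02 between knockout replicate 1 and control replicate 3, while knockout replicate 3 lay far below all controls. The change was -0.31 ± 0.11 (SE), or 0.809-fold with an interval of 0.682 to 0.960, the largest in size among the 10, and the limma adjusted p was 0.207. Array weights estimated from the same data brought it just past the threshold, with a change of -0.33 and an adjusted p of 0.0499. In that setting 733 genes passed, beside 83 in the main fit. Knockout replicate 2 had a weight of 4.19 there, and the other arrays had weights of 0.56 to 1.78. Over all 14 alternative settings the adjusted p of Jag1 ran from 0.0499 to 0.443, and without single arrays the change ran from -0.41 to -0.21.

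Dll1, the ligand best known from somite formation and also present in fetal arterial endothelium, stood at 8.16, 8.21 and 8.02 in the controls and at 8.01, 7.86 and 7.94 in the knockouts. Control replicate 3 and knockout replicate 1 nearly met, 0.0066 apart. The change was -0.19 ± 0.07 (SE), with a 95% interval of 0.777-fold to 0.986-fold and a limma adjusted p of 0.240. Jag2, a ligand of the same Jagged type as Jag1, stood at 8.38, 8.30 and 8.40 in the controls and at 8.36, 8.31 and 8.24 in the knockouts. Its groups overlapped, and its change was -0.05 ± 0.06 with an adjusted p of 0.716.

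Because each ligand was read on the same arrays, the shift of one can be set against that of another, a comparison chosen after the values were seen and given with no test. Relative to Jag1, and taking the control mean as 0, Dll4 stood at -0.04, -0.02 and 0.06 in the controls and at 0.32, 0.49 and 0.69 in the knockouts. The mean difference in that log2 ratio was 0.50, or 1.41-fold. Since Dll4 lay above and Jag1 below the controls on every knockout array, their ratio had to separate the groups. Relative to Dll1, Dll4 stood at -0.02, -0.07 and 0.09 in the controls and at 0.35, 0.43 and 0.38 in the knockouts, a mean difference of 0.38. The groups of Dll4 and Dll1 were apart in the same way, so the separation in both ratios follows from the single genes.

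**Figure D2:**
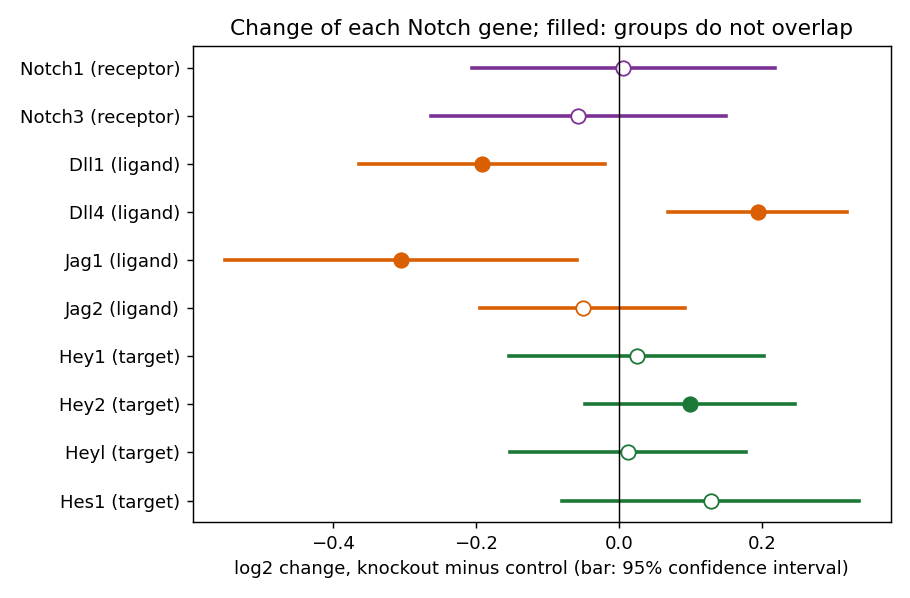
Log2 change of each Notch gene, conditional knockout minus control, with its 95% confidence interval; receptors are purple, ligands orange and targets green, and filled points mark genes whose groups do not overlap. Dll4, Jag1 and Dll1 have intervals clear of 0 before adjustment, with Dll4 to the right and Jag1 and Dll1 to the left.

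The receptors had group means close to each other and a wide spread among the knockout pools. Notch1, the receptor of endocardium and endothelium, stood at 9.31, 9.37 and 9.33 in the controls and at 9.54, 9.28 and 9.21 in the knockouts. Knockout replicate 1 lay above all controls and the other knockouts lay below them. The change was 0.0058 ± 0.09 (SE) with a 95% interval of 0.867-fold to 1.16-fold and a limma adjusted p of 0.983, and without knockout replicate 1 it was -0.09. Notch3, the receptor of smooth muscle and pericytes, stood at 8.53, 8.60 and 8.55 in the controls and at 8.68, 8.48 and 8.35 in the knockouts. The same order of the knockout pools was seen, and the change was -0.06 ± 0.09 with an adjusted p of 0.783.

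Among the target genes Hey2 was the only one whose groups did not overlap, 1 of 4 beside 24.6% of all genes. Hey2, a repressor that marks compact ventricular muscle and carries the RBPJ cores shown above, stood at 12.20, 12.18 and 12.12 in the controls and at 12.23, 12.21 and 12.35 in the knockouts. The closest arrays, control replicate 1 and knockout replicate 2, were 0.014 apart, and knockout replicate 3 stood highest. The change was 0.10 ± 0.06 (SE), with a 95% interval of 0.967-fold to 1.19-fold and a limma adjusted p of 0.457. Without knockout replicate 3 it was 0.056 with an adjusted p of 0.784, and with array weights 0.049 with an adjusted p of 0.569.

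Hes1, a broadly used Notch target and repressor, stood at 9.15, 9.12 and 9.05 in the controls and at 9.40, 9.23 and 9.08 in the knockouts. Knockout replicates 1 and 2 lay above all controls and knockout replicate 3 lay among them. The change was 0.13 ± 0.09 (SE) with a limma adjusted p of 0.499, and without knockout replicate 1 it was 0.04. Hey1, a related repressor of atrial muscle and endocardium, stood at 9.86, 9.77 and 9.65 in the controls and at 9.79, 9.70 and 9.86 in the knockouts. Heyl, the family member of smooth muscle and cushion tissue, stood at 8.70, 8.60 and 8.60 in the controls and at 8.63, 8.75 and 8.56 in the knockouts. Both pairs of groups overlapped widely, with changes of 0.02 ± 0.08 in Hey1 and 0.01 ± 0.07 in Heyl and adjusted p values of 0.901 and 0.950. The sign of the change in Notch1, Notch3, Hey1 and Heyl turned under some alternative settings, so none of them has a direction here.

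The knockout pools differed from each other in a pattern that several members shared. In 5 of the 10 genes, Notch1, Notch3, Jag1, Jag2 and Hes1, knockout replicate 1 was the highest and replicate 3 the lowest of the knockouts, an order seen in 23.6% of all genes. The order was not particular to the members. The mean of the endothelial and endocardial markers lay 0.12, 0.04 and 0.03 above its control mean on knockout replicates 1, 2 and 3. For smooth muscle and pericyte markers it lay at -0.04, -0.07 and -0.14. Arterial, venous and lymphatic, epicardial and erythroid lists fell in that order too, and heart muscle, compact ventricle, macrophage and neural crest lists did not. The SD of the knockouts was more than 3 times that of the controls in 4 members, Notch1, Notch3, Jag1 and Hes1, and in 10.2% of all genes. For Notch1 the SD was 0.03 in the controls and 0.17 in the knockouts, and for Hes1 it was 0.05 and 0.16. Taken as deviations from the group means over the 6 arrays, Jag1 correlated with Hes1 at r = 0.995, Notch1 with Notch3 at 0.974 and Notch1 with Jag1 at 0.923. For the values themselves, which keep the difference between genotypes, r was 0.11, 0.93 and 0.56 in the same pairs. These are descriptions of 6 arrays that share their hybridisations, and the members named were picked for the pattern. Set against Notch1 on the same array, with the control mean as 0, Jag1 stood at 0.06, 0.00 and -0.07 in the controls and at -0.29, -0.27 and -0.38 in the knockouts. The SD of the knockout pools was 0.06 in that log2 ratio and 0.21 for Jag1 alone. For Dll4 and Dll1 that SD was larger relative to Notch1 than alone, 0.15 beside 0.035 for Dll4 and 0.13 beside 0.08 for Dll1. Their mean differences relative to Notch1 were 0.19 for Dll4 and -0.20 for Dll1. Jag2 was not set against Notch1.

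**Figure D3:**
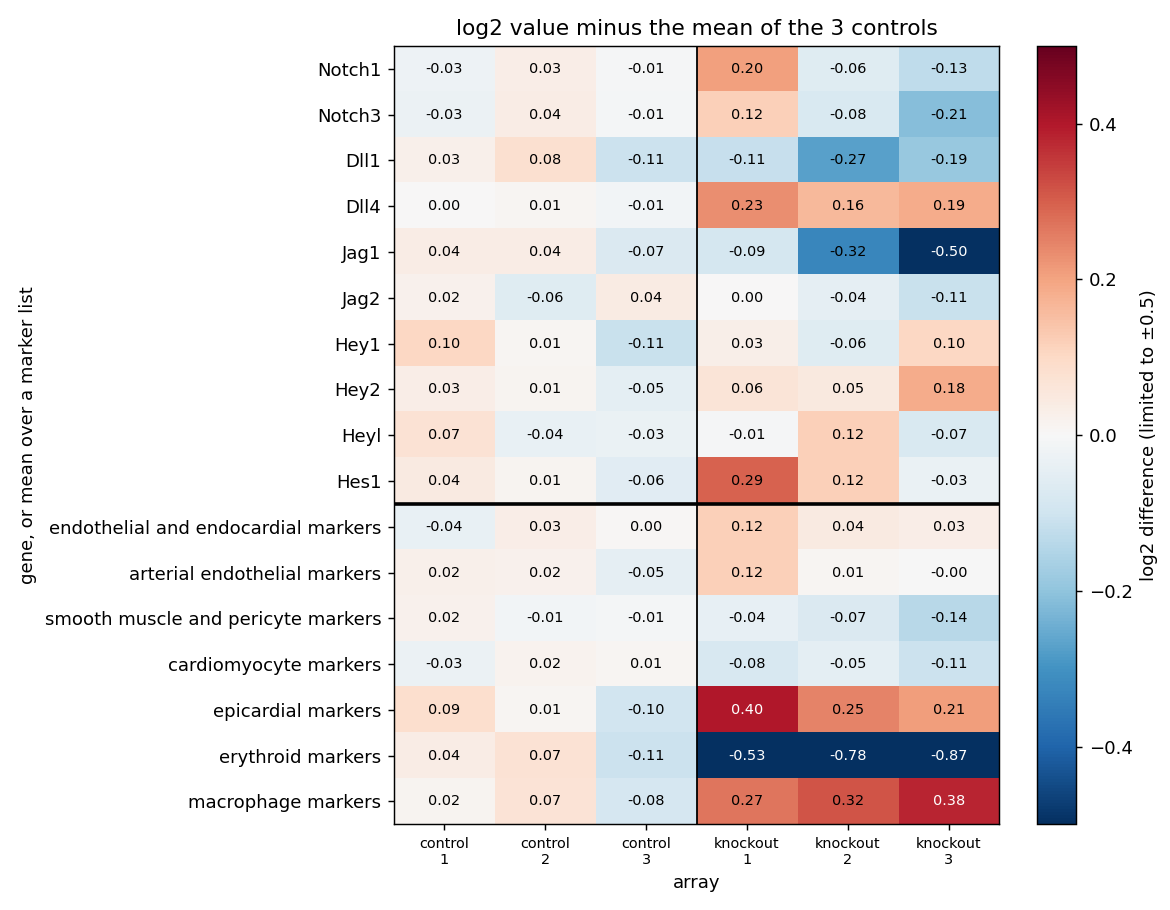
Log2 value on each array minus the mean of the 3 controls, for the 10 Notch genes (upper block) and for the mean over 7 lists of cell type markers (lower block); red is above and blue below the control mean. Knockout replicate 1 is the reddest array for Notch1, Notch3, Dll4 and Hes1, and knockout replicate 3 the bluest for Jag1.

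Whole hearts mix many cell types, and in such bulk samples fewer cells of a type and less RNA per cell cannot be told apart. The cell types that carry Notch genes were followed by marker lists. Endothelial and endocardial markers, the cells of Notch1 and Dll4, had 0 of 19 members past the threshold, with 12 higher and 7 lower in the knockout, a median change of 0.06 and a mean log2 level of 10.5 to 10.6 in the controls and 10.6 to 10.7 in the knockouts. Smallest in p were the adhesion molecule Icam2 (0.45 ± 0.07, SE), the sialomucin Emcn (0.35 ± 0.06) and the adrenomedullin co-receptor Ramp2 (0.24 ± 0.07). In the other direction Cd34, a surface sialomucin, stood at -0.20 ± 0.09 and the transcription factor Sox18 at -0.13 ± 0.06, both below all controls in every knockout and both named after their values were seen. On knockout replicates 1, 2 and 3 the endothelial and endocardial list lay 0.12, 0.04 and 0.03 above its control mean. Dll4 lay 0.23, 0.16 and 0.19 above its own. Arterial markers had 0 of 9 past the threshold and a median of -0.04, with the gap junction gene Gja4 at 0.30 ± 0.07, the transcription factor Sox17 at -0.27 ± 0.07 and Depp1 at 0.53 ± 0.15. Among 5 venous and lymphatic markers the apelin receptor Aplnr fell by 0.55 ± 0.08 (limma adjusted p = 0.0424) and no other passed. The part of these markers in the Dll4 difference was not tested.

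Smooth muscle and pericyte markers, the cells of Notch3 and Heyl and one site of Jag1, had a median of -0.07 over 12 genes. Of these 1 passed, the potassium channel gene Kcnj8, which fell by 0.53 ± 0.08 (SE, limma adjusted p = 0.0424). The mean log2 level of the list was 10.3 to 10.4 in the controls and 10.2 to 10.3 in the knockouts. On knockout replicates 1, 2 and 3 the list stood at -0.04, -0.07 and -0.14 from its control mean. Jag1 stood at -0.09, -0.32 and -0.50 from its own. The part of this list in the Jag1 difference was not tested. Compact ventricle markers, a list of 5 that includes Hey2, had 0 past the threshold, with Kcne1 at 0.54 ± 0.08, Tbx20 at -0.11 ± 0.06 and Fzd2 at -0.13 ± 0.07. Heart muscle markers had 0 of 9 past the threshold and a median of -0.06. Their smallest p values belonged to Nkx2-5 (-0.37 ± 0.10), Mybpc3 (-0.16 ± 0.06) and Ryr2 (-0.15 ± 0.10).

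Erythroid, epicardial and macrophage lists held more genes past the threshold in the same arrays than the marker lists above. They were chosen with earlier results of these data known, so these counts are no test. Of all genes 0.222% fell and 0.336% rose past the threshold. Of 11 erythroid markers 5 fell and 0 rose past the threshold, with a median of -0.90, and Trim10, Alas2 and Slc4a1 had the smallest p. The mean log2 level of that list was 9.88 to 10.1 in the controls and 9.13 to 9.46 in the knockouts. Of 10 epicardial markers 3 rose, Aldh1a1, Msln and Upk1b, with a list median of 0.34 and mean levels of 9.80 to 9.99 in the controls and 10.1 to 10.3 in the knockouts. Another 2 of the 10 lay lower, the transcription factor Tbx18 at -0.24 ± 0.08 (SE), with groups that did not overlap, and the retinoic acid synthesis enzyme Aldh1a2 at -0.21 ± 0.17, neither past the threshold and both named after their values were seen. Of 11 macrophage markers 2 rose, C1qc and Fcgr3, with a list median of 0.34 and mean levels of 8.16 to 8.31 in the controls and 8.51 to 8.62 in the knockouts. Among 5 markers of neural crest and neurons, a lineage largely outside Mesp1-Cre, 0 passed and the median was 0.0014. Their mean log2 level was 6.78 to 6.92 in the controls and 6.80 to 6.94 in the knockouts, below the array medians of 7.41 to 7.48. Folds of such dim probe sets are compressed, so an unchanged lineage cannot be read from them. RMA values have no zero, and the lowest value of any marker in these 4 lists was 6.51. The part of these lists in the member values was not tested.

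The rest of the pathway was covered by 77 further genes, of which 60 were measured. Of these 2 rose and 0 fell past the limma threshold. The 2 were 3.33% of the list, beside 0.336% of all genes that rose past it. These lists were chosen with earlier results of these data known, so that share is no test of the pathway. The median change of the 60 was -0.02. Both that rose belong to lists of genes downstream of Notch that many other signals also control. Bmp10, a growth factor of trabecular muscle, stood at 11.70 ± 0.04 in the controls and 12.42 ± 0.13 in the knockouts (SD, n = 3 each). It rose by 0.71 ± 0.08 (SE), a 1.64-fold change with a limma adjusted p of 0.0184. Cdkn1a, the cell cycle inhibitor p21, stood at 9.87 ± 0.10 in the controls and 10.42 ± 0.12 in the knockouts, and rose by 0.55 ± 0.08 (SE) with a limma adjusted p of 0.0481. With single arrays left out Bmp10 passed in 2 of 6 fits, without knockout replicate 1 and without knockout replicate 2, and Cdkn1a in 0 of 6. Their changes in those fits ran from 0.64 to 0.76 in Bmp10 and from 0.48 to 0.60 in Cdkn1a.

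Receptors and ligands outside the 10 did not pass. Of 5 measured, Egfl7, a secreted endothelial protein reported to bind Notch, stood at 0.27 ± 0.07 (SE) with a limma adjusted p of 0.145. With array weights, where 733 genes passed beside 83 in the main fit, it passed at 0.29 and an adjusted p of 0.0436. Dlk1 stood at -0.14 ± 0.07 and Notch2 at -0.13 ± 0.13. Genes that process ligands and receptors had 0 of 21 past the threshold and a median of -0.03. The smallest p values were those of the gamma-secretase subunit gene Psen2 (0.19 ± 0.07), the Notch-modifying glycosyltransferase Rfng (-0.16 ± 0.07) and the gamma-secretase component Aph1c (0.17 ± 0.08). The nuclear partners had 0 of 13 past it and a median of -0.02, with the corepressors Tle1 at -0.18 ± 0.08 and Tle2 at -0.09 ± 0.06 and the coactivator Maml3 at 0.10 ± 0.08. Rbpj itself, named after its value was seen, stood at 0.15 ± 0.12 with a limma adjusted p of 0.579. Its probe set was dim, with means of 6.87 in the controls and 7.02 in the knockouts beside array medians of 7.41 to 7.48.

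Other target genes lay mostly above 0, with 8 of 10 higher (beside 51.6% of all genes) and a median change of 0.12, but 1 passed, Cdkn1a. Of the 10, the groups did not overlap in 5, all higher in the knockout, beside 14.2% of all genes not overlapping and higher. This list, too, was chosen with earlier results of these data known, so its shares are no test. The genes that did not pass in this paragraph were named after their values were seen. The inhibitors of differentiation Id1 and Id3, which also respond to BMP signals, stood at 0.32 ± 0.10 and 0.29 ± 0.09 (SE) with limma adjusted p values of 0.172 for both. The 2 lower genes were Hes5 at -0.12 ± 0.09 and Nrarp at -0.05 ± 0.08, with limma adjusted p values of 0.529 and 0.792. Both overlapped between groups. Cardiac genes placed downstream of Notch had 1 of 11 past the threshold, Bmp10, and a median of -0.03. Efnb2, the ephrin ligand of arteries and trabecular endocardium, stood at -0.18 ± 0.06, below all controls in every knockout, with an adjusted p of 0.184. Bmp4 stood at -0.41 ± 0.19 and the trabecular growth factor gene Nrg1 at 0.17 ± 0.09, and both overlapped between groups.

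**Figure D4:**
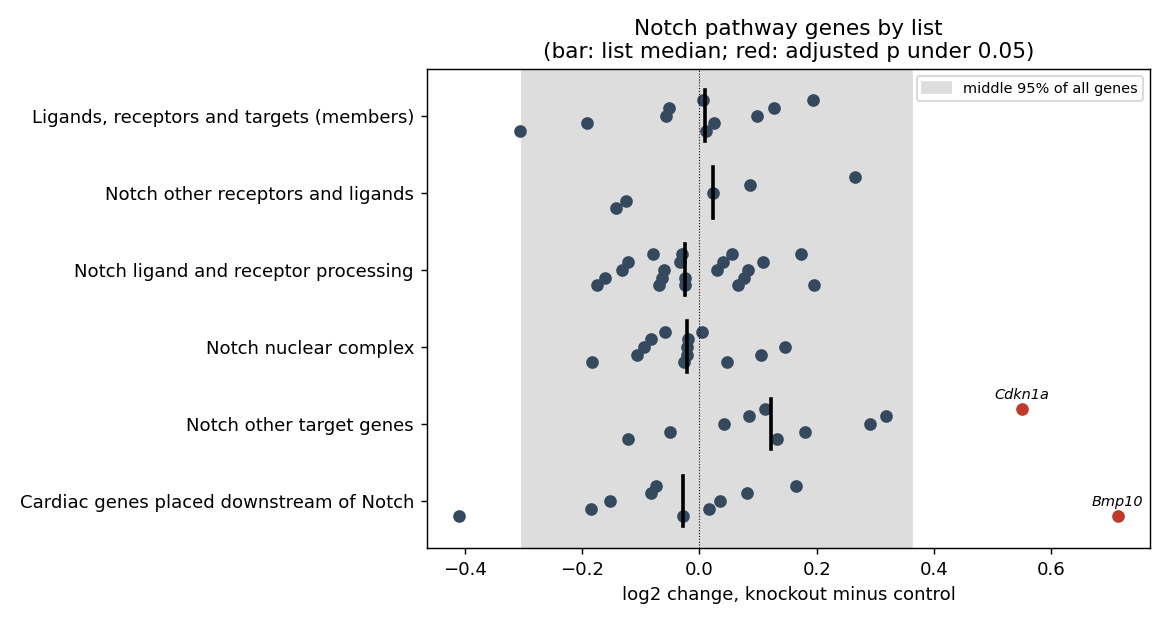
Log2 change, conditional knockout minus control, of every measured Notch pathway gene by list, with a bar at each list's median, red points for genes past the adjusted threshold and a grey band over the middle 95% of all genes (-0.30 to 0.36). Jag1 lies just beyond the lower edge of the band, the other 9 members lie inside it, and Cdkn1a and Bmp10 are the only red points.

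The genes whose pattern over the 6 arrays was most like that of each of the 3 members with the smallest p were named by Pearson correlation across arrays. For Dll4 they were Bmp10 (r = 0.996), the adenylate kinase Ak4 (0.996) and the retinaldehyde dehydrogenase Aldh1a1 (0.994). Bmp10 and Aldh1a1 rose past the threshold, Aldh1a1 by 0.75 ± 0.08 (SE), while Ak4 stood at 0.34 ± 0.06 with a limma adjusted p of 0.0584. For Jag1 they were the unconventional myosin Myo9b (0.997), the cohesin loader Mau2 (0.995) and the kinase Map3k3 (0.992), with changes of -0.18, -0.16 and -0.06, none past the threshold. For Dll1 they were the peroxisomal enzyme Hsd17b4 (0.996), the receptor Tgfbr1 (0.991) and the mannosidase Man1a2 (0.989), with changes of -0.10, -0.18 and -0.10, none past it. At a correlation above 0.9 there were 419 genes for Dll4, 702 for Jag1 and 383 for Dll1, or 2.82%, 4.72% and 2.58% of all genes. These correlations include the difference between genotypes, which in Dll4 was 0.19 beside SDs of 0.013 in the controls and 0.035 in the knockouts. Genes picked this way for Dll4 therefore had to lie higher in the knockouts, so their rise is no separate result.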

How the data were processed

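Total RNA of 6 heart pools was labelled with Ambion and Affymetrix kits, per the labels' protocols. The log2 values are as the authors deposited them, made with RMA in Expression Console (submitters' processing notes), with versions not given in the sources used here. RMA hides a change shared by most genes and compresses folds of dim probe sets. Of 23332 rows, 14996 carried 1 gene symbol in the platform annotation, and the row with the highest mean was kept for 135 genes with several.

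All 14860 genes were fitted with limma 3.58.1 in R 4.3.3 (lmFit, eBayes), knockout minus control, two-sided, with Benjamini-Hochberg adjustment over all genes. Errors of changes are SEs, and errors of levels are SDs. The fit was tested on simulated data. Same-numbered arrays did not deviate together (r = -0.04, 0.02 and 0.13), so numbers were not taken as pairs. Beside the members, the text names pathway genes past the threshold or the 3 with the smallest p per list. Of each marker list it names up to 3 with the smallest p. From the venous, smooth muscle and macrophage lists only markers past the threshold are named, and from neural crest none. Genes named after their values were seen are marked as such where they appear. Members and lists were chosen with earlier results of these data known. Alternatives were a replicate block, a variance trend, array weights, centring, quantile normalisation, a brightness filter, all rows, row means and leaving out each array. The number of arrays limits the precision.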

Additional observations from a re-analysis of the deposited data

How the results depend on the processing

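Of 139 member values under 14 alternatives, 124 kept their direction and side of the threshold, Jag1 passed in 1 (array weights, -0.33), and 14 changed sign, all in Notch1, Notch3, Hey1 and Heyl. The limma count of members past the threshold was 0 in every alternative but array weights, where it was 1 (1 to 3 members at an unadjusted p under 0.05). Signs turned with array weights for Notch1 (-0.028) and Hey1 (-0.074), with median centring for Notch1 (-0.016) and Heyl (-0.0098), and with quantile normalisation for Notch1 (-0.018) and Heyl (-0.0041). With single arrays left out, Notch1 ran from -0.093 to 0.072, Notch3 from -0.145 to 0.021, Hey1 from -0.030 to 0.075 and Heyl from -0.041 to 0.055. The 83 genes past the threshold became 38 with the replicate block, 203 with a variance trend and robust moderation, 733 with array weights, 443 among brighter genes (Dll1 was below that filter), 0 in limma over all rows of the array (2935 at an unadjusted p under 0.05), and 3 to 28 with single arrays left out. The 2 other Notch pathway genes past it, a count added after seeing the data, became 3 with array weights (Egfl7 was added), 1 with the replicate block, 0 over all rows of the array (8 at an unadjusted p under 0.05) and 0 to 1 with single arrays left out. The replicate block changed no member's call. The cause of these differences was not tested.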
